A study of Mus musculus with 12 samples.

Results

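Csrp3, Ankrd2, Ankrd1, Xirp1 and Fhl1 encode proteins that sit at the sarcomere's Z-disc or on its giant spring protein titin and that are known to respond to stretch of the muscle fibre. They were selected on high array values in control TA only, and for that role, and were found as all probe sets carrying one of the 5 symbols in the platform annotation. That gave 7 of 12422 probe sets, of which 6 passed the filter on low values, so that the 5 genes were set among 7310 measured genes and 10331 measured probe sets. Fhl1 had 3 probe sets, called here the brighter, the dimmer and the third. The third did not pass, being below the floor, set at the 25th percentile of intensities, on all 12 arrays.

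The arrays measured RNA of whole muscle from mice aged 3 weeks, with 3 arrays in each of 4 groups. Dysf_null TA and Dysf_null QF were muscles of C57BL/10-SJL.Dysf mice, which carry a defect in dysferlin (Dysf -/-). Dysferlin is a membrane repair protein of the muscle fibre whose loss in people causes limb-girdle and Miyoshi muscular dystrophies. How much of the protein remained in these mice was not measured here. Control TA and Control QF were the same muscles of C57BL/10 mice. Strain and dysferlin genotype change together between these groups, so effects of strain background and of the dysferlin defect cannot be told apart. The dysferlin defect is carried in the germline, so it affects every cell of the animal and not the fibres alone. TA is read here as the distal tibialis anterior of the lower leg and QF as the proximal quadriceps femoris of the thigh, the usual meaning of these letters beside the study's title. The labels number the arrays 1 to 3 in each group, and they do not say whether each came from its own animal or from a pool, so the tests measure the spread between arrays, which may be technical.

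Muscle fibres sense load through the Z-disc, the plate that anchors the thin filaments and the ends of titin, and through titin's elastic I-band. Csrp3, the muscle LIM protein, is a Z-disc adaptor that binds telethonin and alpha-actinin and can enter the nucleus. Ankrd1 (CARP) and Ankrd2 (Arpp) are muscle ankyrin repeat proteins that bind titin's N2A segment, shuttle to the nucleus and are induced by stretch. Fhl1, a LIM-only protein, binds titin's N2B segment in heart and is abundant in skeletal muscle, and Xirp1 (Xin) binds actin and filamin at the intercalated disc, the myotendinous junction and sites of fibre damage. In skeletal muscle Csrp3 and Ankrd2 are also known for higher levels in slow fibres than in fast ones.

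On the GRCm38.p6 assembly Csrp3 lies at chr7:48830398-48848051, Ankrd2 at chr19:42035917-42045111, Ankrd1 at chr19:36111965-36119844, Xirp1 at chr9:120013755-120023598 and Fhl1 at chrX:56731209-56793346. Promoter windows of RefSeq on that build, from 250 bases before to 50 bases after a transcript start, matched 4 of the 5 genes, with 2 windows each for Csrp3 and Fhl1. The windows of the 3 genes with the largest differences in TA are shown, and capitals mark the motif matches found in them. Their joint fall in TA follows in part from the choice of the genes, and in QF their differences had both signs. Csrp3 is given at chr7:48848002-48848301 (minus strand), Ankrd2 at chr19:42035777-42036076 (plus strand) and Ankrd1 at chr19:36119795-36120094 (minus strand), each 5′ to 3′ along the gene.
Csrp3: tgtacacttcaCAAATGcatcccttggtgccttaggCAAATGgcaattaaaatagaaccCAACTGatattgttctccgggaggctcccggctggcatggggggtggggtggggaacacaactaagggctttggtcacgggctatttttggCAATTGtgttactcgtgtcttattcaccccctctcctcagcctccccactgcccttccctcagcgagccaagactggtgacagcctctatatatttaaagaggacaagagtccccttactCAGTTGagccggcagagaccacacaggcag
Ankrd2: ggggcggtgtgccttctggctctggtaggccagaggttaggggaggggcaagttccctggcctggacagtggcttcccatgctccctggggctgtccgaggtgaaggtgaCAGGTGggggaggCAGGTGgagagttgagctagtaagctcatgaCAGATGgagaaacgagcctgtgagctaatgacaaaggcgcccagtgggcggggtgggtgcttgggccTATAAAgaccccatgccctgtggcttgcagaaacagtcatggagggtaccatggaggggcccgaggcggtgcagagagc
Ankrd1: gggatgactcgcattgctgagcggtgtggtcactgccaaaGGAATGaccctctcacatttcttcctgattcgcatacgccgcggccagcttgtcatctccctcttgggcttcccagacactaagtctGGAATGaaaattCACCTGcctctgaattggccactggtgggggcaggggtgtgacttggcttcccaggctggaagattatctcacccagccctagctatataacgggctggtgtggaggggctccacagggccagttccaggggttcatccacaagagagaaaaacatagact
The motifs searched on both strands were the E-box CANNTG bound by the MyoD family, the MCAT element CATTCC bound by TEAD factors, TATAAA, the CArG box of serum response factor and the MEF2 site. The Csrp3 window held 5 E-boxes and no other match, and at least 5 E-boxes were found in 2.1% of 32851 promoter windows. Ankrd2 held 3 E-boxes, as 17.6% of windows did at least, and TATAAA 29 bases before the start, a motif of 13.6% of windows. Ankrd1 held 2 MCAT matches, 210 and 123 bases before the start and both on the opposite strand (GGAATG), and 1 E-box. At least 2 MCAT matches were found in 1.36% of all windows. The first Fhl1 window held a CArG box 102 bases before the start, which 1.63% of windows had, and no window of the 4 genes held a MEF2 site. No matches of different motifs overlapped, and a match describes letters, not a bound site.

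The arrays had been scaled by the submitters to a common mean, and replicate 2 of both QF groups stood apart. These correlated with the remaining arrays at a median of 0.876 in Dysf_null and 0.866 in Control, where the 10 others reached 0.926 to 0.959. Their median deposited intensities of 107.1 and 106.1 were also above the 72.8 to 84.3 of the others. For Csrp3, Ankrd2, Ankrd1, Xirp1 and Fhl1 the tested differences of the main fit that use QF are therefore also given without both. For other genes this was done only in part. Several of their calls in QF carry only a count of the alternative settings in which they were lost. Fibre genes were at high level in all groups: the summed intensity of 7 fibre markers (among them Ckm, Acta1 and Pvalb) was 86750 to 98590 in Dysf_null TA, 96580 to 104400 in Control TA, 91660 to 101800 in Dysf_null QF and 97450 to 105500 in Control QF.

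The genotype difference in TA asks how the distal muscle of Dysf_null mice differed from that of Control mice. All 6 measured probe sets of the 5 genes were lower in Dysf_null TA, and on none of them did the arrays of the 2 genotypes overlap. Over all measured probe sets, 6.87% were lower in Dysf_null TA without overlap, and limma called 0.407% in either direction. Since the choice of the genes used these values, the differences are given as a description with no test. In bulk muscle, fewer cells of a type and less RNA per cell cannot be told apart.

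Csrp3 had deposited intensities of 1058.6, 1148.1 and 1207.3 in Dysf_null TA, against 7780.6, 6428.1 and 7977.3 in Control TA. The lowest Control TA array thus lay far above the highest Dysf_null TA array. After normalization the difference was -2.68 ± 0.24 on the log2 scale (SE; 95% interval -3.20 to -2.15), a level 6.40-fold lower in Dysf_null TA, with rank 2 among the falls of 10331 probe sets. Ankrd2 had 1044.9, 880.7 and 1161.6 in Dysf_null TA, against 5687.4, 4556.8 and 5227.6 in Control TA, again 2 groups far apart. Its difference was -2.30 ± 0.16 (95% interval -2.65 to -1.96), which is 4.93-fold lower. Ankrd1, the other titin-binding ankyrin repeat gene, was dimmer throughout, with 87.7, 110.4 and 117.5 in Dysf_null TA, against 516.4, 451.9 and 580.5 in Control TA. Its level was 4.77-fold lower, with a log2 difference of -2.26 ± 0.34 (95% interval -2.999 to -1.51). Ankrd2 and Ankrd1 had ranks 4 and 5 among the falls.

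Xirp1 had 435.4, 529.2 and 398.8 in Dysf_null TA, against 1108.9, 1251.5 and 1106.2 in Control TA. Its log2 difference was -1.29 ± 0.16 (95% interval -1.64 to -0.95), 2.45-fold lower and rank 22 among the falls. Fhl1 was the brightest of the 5 on the arrays, though brightness is not comparable between probe sets, and it differed least. On the brighter probe set it had 7339.3, 6720.7 and 7389.5 in Dysf_null TA, against 13281.9, 9334.3 and 11060.2 in Control TA. The lowest Control TA array, replicate 2, still lay above each Dysf_null TA array. The difference was -0.65 ± 0.11 (95% interval -0.90 to -0.41), or 1.57-fold lower, at rank 310. The dimmer probe set of Fhl1 gave -0.71 ± 0.19, or 1.64-fold lower, at rank 232, with 4415.4, 4586.8 and 4916.7 in Dysf_null TA, against 8590.7, 6969.6 and 7924 in Control TA. The genes thus differed among themselves by over 2 log2 units in the size of the fall.

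**Figure D1:**
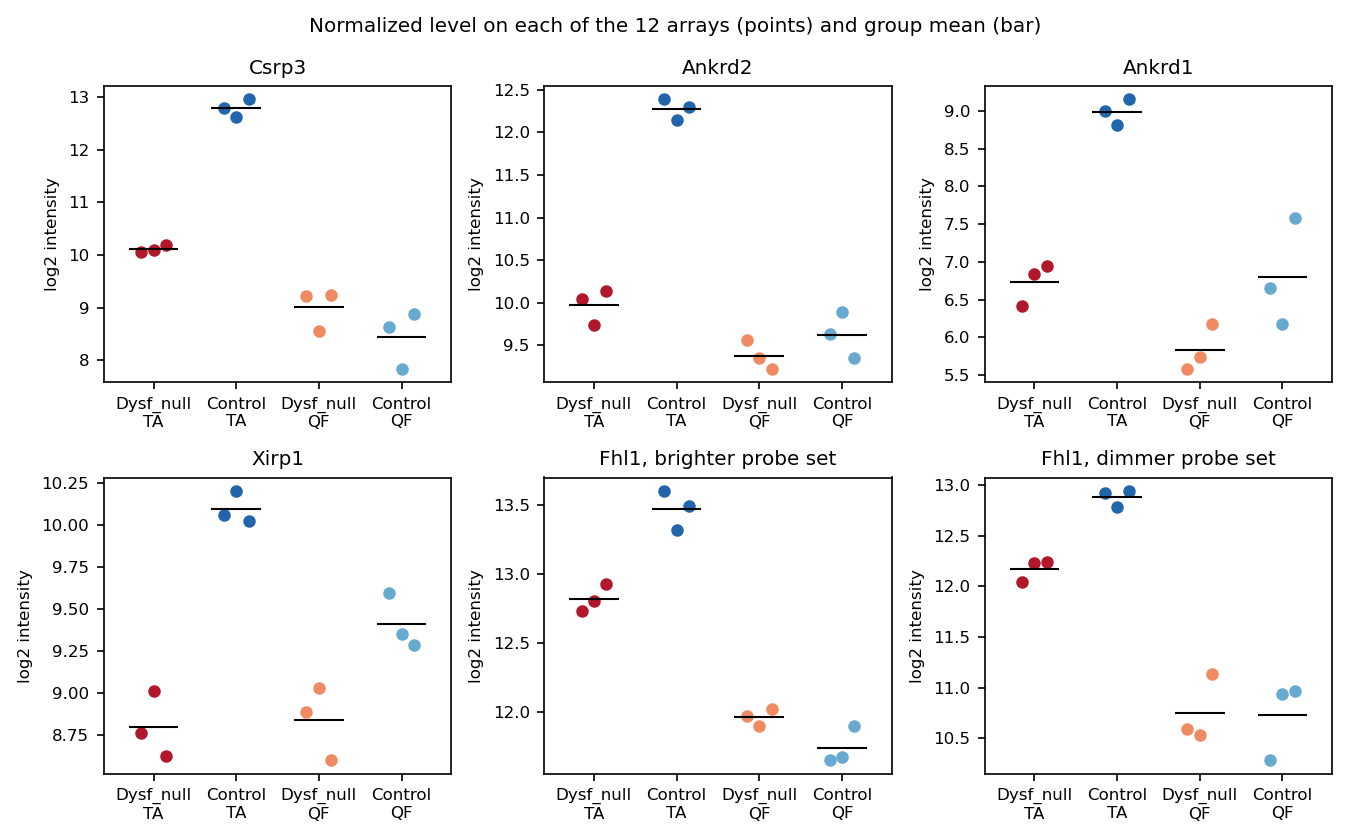
Normalized log2 intensity (vertical axis) of each measured probe set of the 5 genes on the 12 arrays, with points for arrays, bars for group means and 1 panel per probe set. Control TA has the highest mean in each panel, 12.80 for Csrp3 and 8.99 for Ankrd1, while Control QF is second for Xirp1 at 9.41 and Dysf_null TA is second for both probe sets of Fhl1.

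The muscle difference in Control mice asks how the distal and the proximal muscle differ without the dysferlin defect, and it too holds Control TA, so it is described and not tested. All 6 probe sets were higher in TA with no overlap between arrays, against 8.16% of all probe sets (limma called 0.736%). Csrp3 had 381.5, 254.8 and 475.7 in Control QF, the lowest group mean for that gene, so that Control TA was 20.4-fold higher than Control QF (log2 difference 4.35 ± 0.24), the largest rise of all probe sets. Ankrd2 had 786.6, 814.9 and 670.8 in Control QF, against which Control TA was 6.27-fold higher (2.65 ± 0.16, rank 2). Ankrd1 had 100.8, 94.7 and 182.9 in Control QF, with replicate 3 well above the other two, and Control TA was 4.55-fold higher (2.18 ± 0.34, rank 7). Fhl1 was 3.32-fold higher in Control TA than in Control QF on the brighter probe set (rank 25) and 4.44-fold on the dimmer (rank 8). Xirp1 was the exception in size, 1.61-fold higher (0.68 ± 0.16, rank 736), with 766.7, 599.3 and 638.8 in Control QF.

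The order of the 4 group means therefore differed between the genes. Control TA came first for all 5. For Csrp3 the means were 10.12 ± 0.06 in Dysf_null TA, 12.80 ± 0.16 in Control TA, 9.01 ± 0.39 in Dysf_null QF and 8.45 ± 0.54 in Control QF (log2 intensity, SD, n = 3 each), and the arrays of the 2 lowest groups overlapped. For Ankrd1 they were 6.73 ± 0.28 in Dysf_null TA, 8.99 ± 0.17 in Control TA, 5.83 ± 0.31 in Dysf_null QF and 6.81 ± 0.72 in Control QF, so that Dysf_null TA and Control QF lay within their spread of each other. For Xirp1 Control QF, at 9.41 ± 0.16, stood second, while Dysf_null TA at 8.80 ± 0.20 and Dysf_null QF at 8.84 ± 0.22 could not be ordered. On the brighter probe set of Fhl1 Dysf_null TA, at 12.82 ± 0.10, stood second and both QF groups were lower, with 11.96 ± 0.06 in Dysf_null QF and 11.74 ± 0.14 in Control QF. A high level in control TA only thus described Csrp3, Ankrd2 and Ankrd1 better than it did Xirp1 and Fhl1.

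The comparisons that leave out Control TA take their differences from the other groups only. There the 5 genes were tested, by limma over all 10331 probe sets with Benjamini-Hochberg adjustment. The fit also held the Control TA arrays, so the SE of these tests rests in part on values that ranked the genes. The genes were also picked for low values in these groups, so a p that misses the threshold says nothing for or against a difference. A call is likewise not independent of the choice of genes, and the percentages of all probe sets beside it are a description. The muscle difference within Dysf_null mice asks whether TA and QF differed where dysferlin was defective. Fhl1 was higher in TA on both measured probe sets, which made 2 of the 6 probe sets called, against 0.0968% of all probe sets called as higher and 0.3% in either direction, and 5 of the 6 had an unadjusted p under 0.05.

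On its brighter probe set Fhl1 had 4094.9, 3078.7 and 4071.9 in Dysf_null QF, all below the Dysf_null TA arrays given above. The difference was 0.86 ± 0.11 (TA minus QF; 95% interval 0.61 to 1.10), 1.81-fold, with an adjusted p of 0.00311. On the dimmer it had 1554.9, 1246.8 and 2306.7 in Dysf_null QF, and the difference was 1.41 ± 0.19 (95% interval 1.00 to 1.83), 2.67-fold, with an adjusted p of 0.00388. Without both QF arrays numbered 2 the adjusted p-values were 0.0466 and 0.0435, both still called. The call on the brighter probe set was lost without quantile normalization (adjusted p = 0.141) and without the intensity trend (0.0868), and fitting Dysf_null arrays alone lost both (0.0643 and 0.0685).

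Csrp3 had 588.9, 374.9 and 630 in Dysf_null QF, below every Dysf_null TA array, with a difference of 1.11 ± 0.24 (95% interval 0.59 to 1.64) that did not pass the test (adjusted p = 0.123). Without both QF arrays numbered 2 it was 0.89 and passed (adjusted p = 0.0234), and it also passed without the Control QF array numbered 2 alone (0.0178). Ankrd2 had 750, 594.4 and 624.7 in Dysf_null QF, a difference of 0.59 ± 0.16 with an adjusted p of 0.361. Ankrd1 had 50, 73 and 65 in Dysf_null QF, a difference of 0.90 ± 0.34 with an adjusted p of 0.775. Without both QF arrays numbered 2 they were 0.58 (adjusted p = 0.493) and 0.85 (0.778). In both genes the Dysf_null TA and QF arrays did not overlap, as in 5 of the 6 probe sets, against 5.71% of all probe sets higher in TA without overlap. Xirp1 had 462.1, 494.9 and 398.6 in Dysf_null QF, inside or near the Dysf_null TA range, and a difference of -0.04 ± 0.16 (95% interval -0.38 to 0.30, adjusted p = 0.974), which was 0.0555 without both QF arrays numbered 2 (adjusted p = 1).

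Markers of other cells also differed between the muscles. Fat markers summed to 1406 to 1835 in Dysf_null TA, against 3194 to 3603 in Dysf_null QF, and all 6 had differences below 0 (median -0.94). Of these Adipoq (-1.12, adjusted p = 0.000254) and Ucp1 (-3.03, adjusted p = 0.000144) were called, with Ucp1 at the floor in both TA groups. In Control mice the fat sums were 1413 to 1618 in TA, against 3005 to 3342 in QF (median -1.24), with Adipoq (-1.46), Cidec (-2.20) and Ucp1 (-1.40) called. Cidec was at the floor on 2 of 3 Control TA arrays, so its value depends on the floor. The calls in Control were lost in 5 of 22 alternative settings for Cidec and 8 for Ucp1. Ucp1's other probe set gave -1.42 in Dysf_null and -0.67 in Control, neither called. Granulocyte markers had a median of 1.34 in Dysf_null, with S100a9 (2.74, adjusted p = 0.00119) and S100a8 (2.08, adjusted p = 0.0416, lost in 13 of 22 alternative settings) called as higher in TA. S100a9 was lower in TA in Control mice (-1.82, adjusted p = 0.0201, lost in 6 of 22 alternative settings). Cd68 was higher in Control TA than in Control QF (1.60, adjusted p = 0.000931), the 1 call among 12 measured macrophage genes, whose median was 0.22. The part of these cells in the muscle differences of the 5 genes was not tested.

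**Figure D2:**
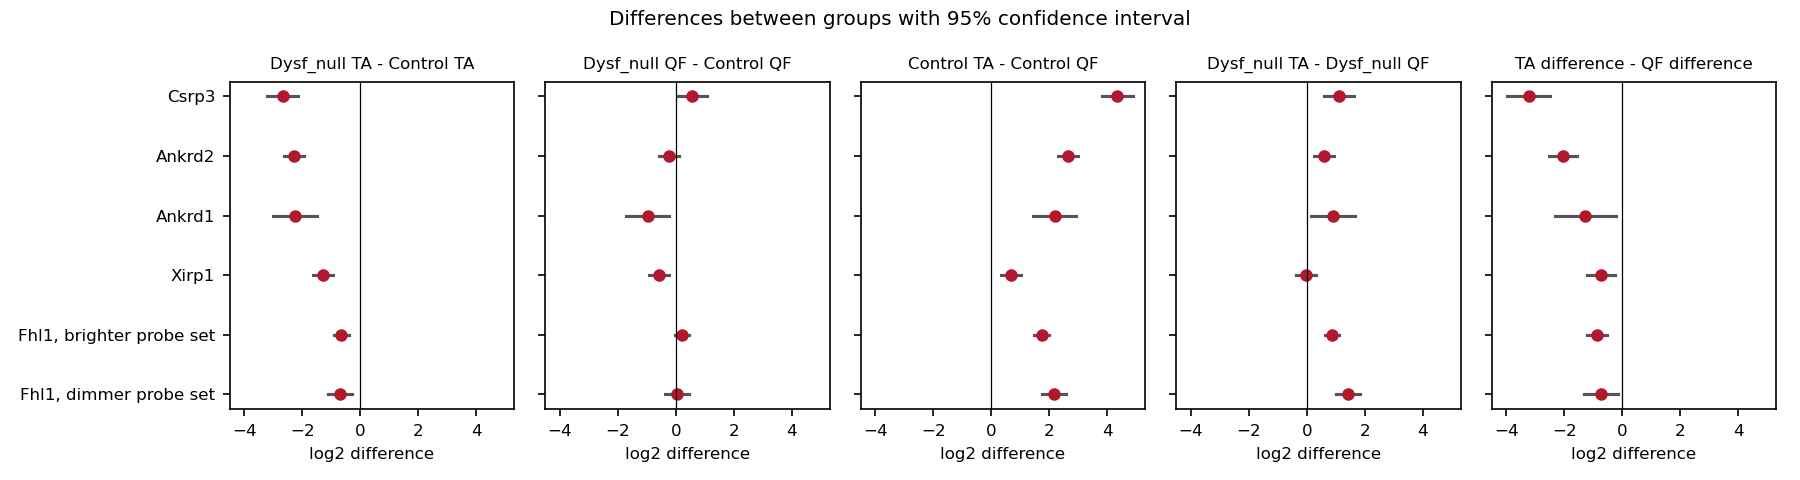
Log2 differences (horizontal axis) of each measured probe set of the 5 genes in the genotype and muscle comparisons, with 95% confidence intervals from the fit over 12 arrays. In TA all 6 genotype differences lie below 0, from -2.68 (Csrp3) to -0.65 (the brighter Fhl1 probe set), while in QF they lie between -0.97 (Ankrd1) and 0.56 (Csrp3).

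The genotype difference in QF asks how the proximal muscle of Dysf_null mice differed from that of Control mice, and the 5 genes had differences of both signs there. By limma 0 of the 6 probe sets were called, against 0.455% of all probe sets, and 3 had an unadjusted p under 0.05. Arrays of the same number deviated together in QF (correlations of 0.39 to 0.71) and only weakly in TA (0.11 to 0.23). A fit with the replicate number as a block within each muscle is therefore set beside the main fit. The labels state no pairing, and the block was chosen from these same data. Results with the block keep both QF arrays numbered 2 and are not given without them. The block fit called 2 of the 6, Csrp3 as higher and Xirp1 as lower in Dysf_null QF, against 2.64% of all probe sets (1.54% in TA).

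Csrp3, at 588.9, 374.9 and 630 in Dysf_null QF, against 381.5, 254.8 and 475.7 in Control QF, was higher in Dysf_null QF by 0.56 ± 0.24 (95% interval 0.03 to 1.08, adjusted p = 0.7, and 0.0141 with the block). The groups overlapped, but each Dysf_null array exceeded the Control array of its number, by 0.59, 0.71 and 0.37. In TA the same pairing gave -2.73, -2.53 and -2.77 for Csrp3. Xirp1 was lower in Dysf_null QF by 1.49-fold, with a log2 difference of -0.57 ± 0.16 (95% interval -0.91 to -0.23, adjusted p = 0.208, and 0.023 with the block), and its groups did not overlap. Of the 6 probe sets 2, those of Xirp1 and Ankrd1, were lower in Dysf_null QF without overlap, against 3.45% of all. The paired differences of Xirp1 were -0.71, -0.32 and -0.68 in QF and -1.30, -1.19 and -1.40 in TA.

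Ankrd1 was 1.96-fold lower in Dysf_null QF, at 50, 73 and 65 against 100.8, 94.7 and 182.9 in Control QF. The deposited values did not overlap, but after normalization Dysf_null QF replicate 3 and Control QF replicate 2 were level, at 6.18 each. Its difference of -0.97 ± 0.34 (95% interval -1.72 to -0.23) passed neither fit, at an adjusted p of 0.461 and of 0.0677 with the block. Ankrd2, at 750, 594.4 and 624.7 in Dysf_null QF, against 786.6, 814.9 and 670.8 in Control QF, had a difference of -0.25 ± 0.16 and overlapping groups (adjusted p = 0.961, and 0.3 with the block). Fhl1 differed by 0.22 ± 0.11 on the brighter probe set (adjusted p = 0.825, and 0.252 with the block) and by 0.02 ± 0.19 on the dimmer (adjusted p = 1, and 0.955 with the block). Its intensities in Control QF were 3431.6, 2602.9 and 3794.6 on the brighter and 1265.6, 1578.2 and 2168.1 on the dimmer. Without both QF arrays numbered 2 the differences in QF were 0.48 for Csrp3 (adjusted p = 0.349), -0.70 for Xirp1 (0.253), -1.24 for Ankrd1 (0.317), -0.0995 for Ankrd2 (1), and 0.22 and 0.24 for the brighter and the dimmer probe set of Fhl1 (0.882 and 0.943). Leaving out 1 array at a time moved Csrp3 between 0.25, without Control QF replicate 2, and 0.78, without Dysf_null QF replicate 2, and Ankrd1 was -0.58 without Control QF replicate 3.

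**Figure D3:**
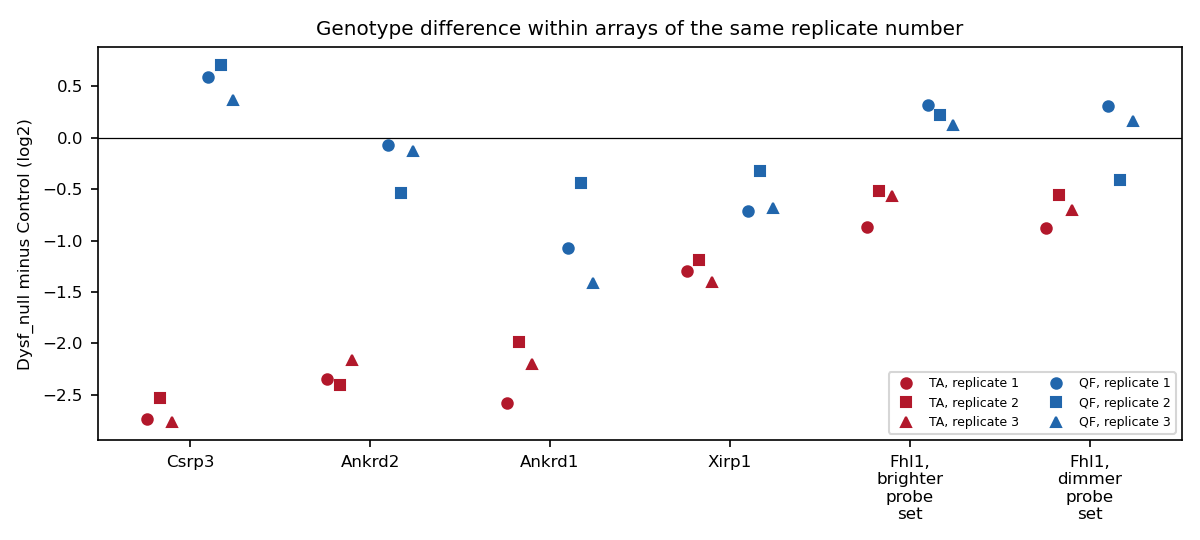
Log2 difference (vertical axis) between the Dysf_null and the Control array of the same replicate number, for each measured probe set of the 5 genes in TA and QF. Each TA difference is below 0, and Csrp3 and the brighter of Fhl1 are the probe sets whose 3 QF differences are all above 0, at 0.37 to 0.71 and 0.12 to 0.32.

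Set against each other, the 2 genotype differences (TA minus QF) were apart by -3.23 ± 0.34 for Csrp3, the lowest value of all probe sets, -2.05 ± 0.23 for Ankrd2, -1.28 ± 0.49 for Ankrd1, -0.72 ± 0.22 for Xirp1, and -0.87 ± 0.16 and -0.74 ± 0.27 for the brighter and the dimmer probe set of Fhl1. These values hold Control TA and are a description; limma called 0.0678% of all probe sets in this comparison, and 0.31% with the block. In Csrp3 and on the brighter probe set of Fhl1 all 3 pairs were lower in TA and all 3 higher in QF, a pattern found in 1.84% of all probe sets.

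Paralogs of the 5 genes were not called in TA without the block, and 4 of the 5 measured had differences above 0. Of 10 listed, 5 were measured: Csrp1 and Csrp2, LIM proteins related to Csrp3 and best known from smooth muscle, the small LIM proteins Crip1 and Crip2, and Fhl2, the heart's main Fhl protein. By limma 0 of the 5 were called in either muscle, with 0 and 2 at an unadjusted p under 0.05 in TA and QF. Their median difference was 0.41 in TA and 0.65 in QF, beside medians near 0 over all 7310 genes (-0.0034 and -0.0043). Csrp1 differed by 0.41 ± 0.20 in TA and 0.65 ± 0.20 in QF, and Csrp2 by 0.62 ± 0.38 and 0.76 ± 0.38. With the block Crip1 was called as higher in Dysf_null in both muscles (adjusted p = 0.0183 in TA and 0.00195 in QF) and Csrp1 in QF (0.0493). The block called 1.7% of all genes in TA and 3.05% in QF, the shares beside which each block call in the lists below stands.

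Other Z-disc proteins were mostly below the threshold. Of 16 measured genes of that list, 1 was called in TA, against 0.479% of all genes, and the list's median difference was -0.11 in TA and -0.10 in QF. The called gene was Cryab, a small heat shock protein that protects desmin and titin. Cryab had 1053, 1051.6 and 817.7 in Dysf_null TA, against 3110, 2317.8 and 2797.4 in Control TA, with no overlap, and a difference of -1.41 ± 0.14 with an adjusted p of 0.00046. Its QF arrays were at 921.9, 739.5 and 926.5 in Dysf_null and at 980.4, 857.5 and 1003.9 in Control. Cryab was also higher in Control TA than in Control QF (1.37, adjusted p = 0.000219, against 0.917% of all genes called in that comparison). The dimmer probe set of Cryab gave 0.06 in TA, so the fall rests on 1 of its 2 probe sets.

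The partners of Csrp3 and titin at the Z-disc were not called in TA. Tcap (telethonin), which caps titin's end, differed by 0.02 ± 0.31, Actn2 (alpha-actinin) by -0.26 ± 0.33, Ldb3 (Cypher) by -0.12 ± 0.11, Myoz1 (calsarcin) by -0.10 ± 0.13, and Des (desmin) by -0.30 ± 0.16. With the block 4 Z-disc genes were called as lower in TA, Cryab, Bag3, Nrap and Pdlim3, against 1.7% of all genes, and Nrap in QF, against 3.05%.

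Of 11 measured titin and M-band genes, Mybph, a myosin-binding protein of the thick filament, was called as lower in Dysf_null TA. Mybph had 1369.3, 1193.4 and 1305.8 in Dysf_null TA, against 2505.9, 2370.8 and 2230.5 in Control TA, a difference of -0.82 ± 0.13 (adjusted p = 0.0129). That call was lost in 7 of 23 alternative settings, with adjusted p up to 0.184, among them the omission of any of the Control TA arrays or of Dysf_null TA replicate 2 or 3. Its QF arrays were at 3208.1, 2180.5 and 2494.9 in Dysf_null QF and 3016.9, 2048.3 and 2392.9 in Control QF, on both sides of the Control TA values. The normalized log2 means were 11.42 in Dysf_null QF, 11.27 in Control QF and 11.12 in Control TA. Mybph was lower in TA than in QF among Dysf_null mice (-1.13 ± 0.13, adjusted p = 0.00093, against 0.301% of all genes). Capn3, the titin-bound protease whose loss causes another limb-girdle dystrophy, differed by 0.34 ± 0.21 in TA and 0.24 ± 0.21 in QF. The list's median was -0.34 in TA and 0.15 in QF. With the block Myom1 and Sqstm1 were also called as lower in Dysf_null, in both muscles, and Smyd1 as higher in QF.

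Lists of pathways linked to stretch of muscle were set beside the 5 genes. The list of serum response factor and its MRTF partners holds these factors as well as targets. Of its 19 measured genes 2 were called as higher in Dysf_null TA, against 0.479% of all genes. These were Fos (2.11, adjusted p = 0.0151) and Tpm4 (0.65, adjusted p = 0.0201), and the list median was 0.16. Fos is an immediate early gene and its other probe set gave 0.00, while Tpm4, a cytoskeletal tropomyosin, was also called in QF (0.89, adjusted p = 0.00452, against 0.575% of all genes). The calls of Fos and Tpm4 in TA were lost on leaving out any of the TA arrays (adjusted p up to 0.107 and 0.265 over all settings), and that of Tpm4 in QF without both QF arrays numbered 2 (0.0513). With the block Fos, Smyd1 and Cnn2 were called as higher in Dysf_null QF as well. By limma 0 of 14 measured genes of the YAP and TEAD list were called in TA (2 at an unadjusted p under 0.05, median -0.07). That list holds factors and kinases of the pathway beside targets. Of 13 genes of the calcineurin, NFAT and MEF2 list 0 were called (1 at an unadjusted p under 0.05, median -0.10). Of 18 costamere and integrin genes 0 were called by limma in TA (3 at an unadjusted p under 0.05, median -0.15), though the block called Ank3 and Itga7 as lower. The 10 measured genes of the cardiac stress list, which also holds general heart genes, had 0 calls and 0 at an unadjusted p under 0.05 in TA (limma, median -0.11).

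**Figure D4:**
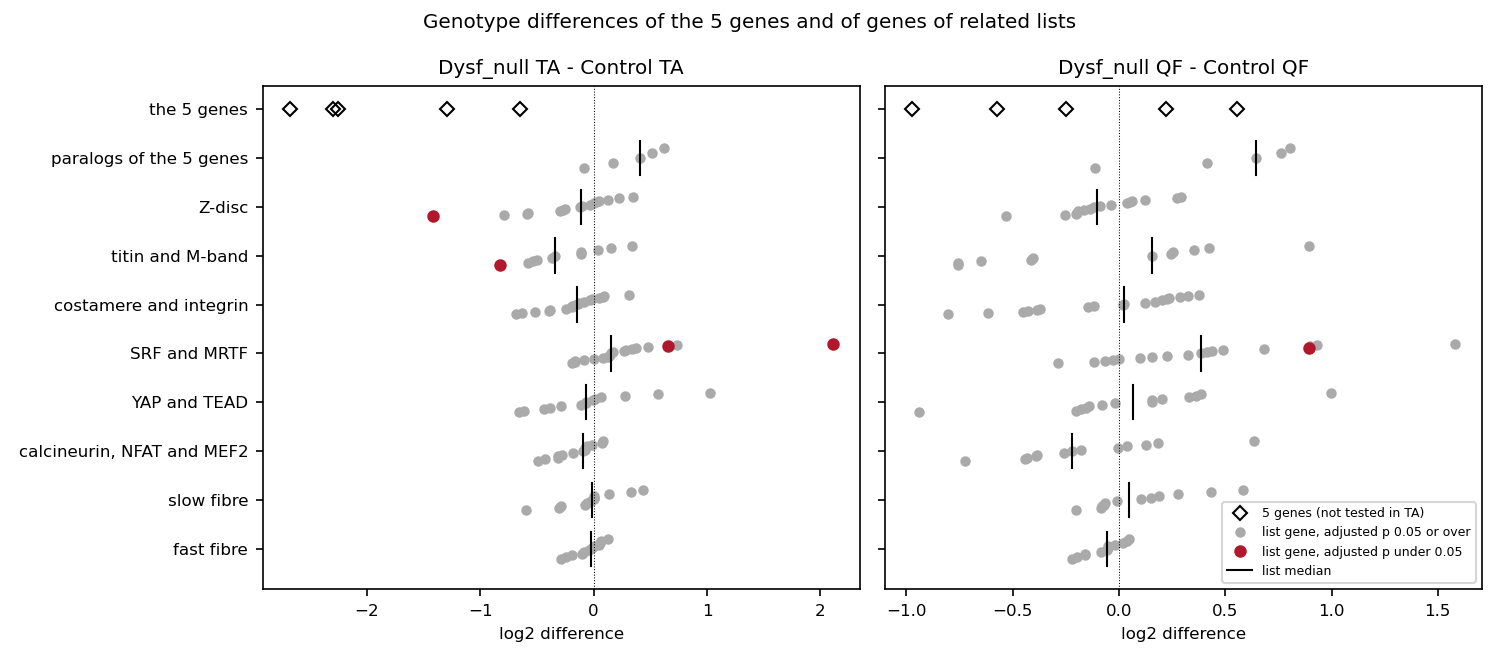
Log2 genotype differences (horizontal axis) in TA and QF of the 5 genes and of the genes of related lists, 1 row per list and 1 point per gene. The 5 genes lie at or below -0.65 in TA, while the medians of the other lists drawn, marked by short lines, lie between -0.34 and 0.41.

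Fibre type genes held no call between genotypes in TA. Of 12 measured slow fibre genes 0 were called in TA by limma (2 at an unadjusted p under 0.05, median -0.01), and of 12 fast fibre genes 0 (0 at an unadjusted p under 0.05, median -0.03). The summed intensity of the slow genes was 13710 to 15200 in Dysf_null TA and 14000 to 15220 in Control TA. Between the muscles of Control mice Mb (myoglobin) was higher in TA (0.99, adjusted p = 0.00329) and Tpm3, the slow fibre tropomyosin, was lower (-0.56, adjusted p = 0.043, lost in 15 of 22 alternative settings), with a slow list median of -0.36. Mb was higher in TA among Dysf_null mice too (0.74, adjusted p = 0.0421, lost in 16 of 22 alternative settings), but its second, dimmer probe set gave -1.17 in Dysf_null and -0.32 in Control, neither called. Myl2, the slow myosin light chain, was lower in TA among Dysf_null mice (-0.72, adjusted p = 0.0161, lost in 9 of 22 alternative settings). Of 20 measured genes of load, disuse and denervation, 0 were called in TA (limma, 2 at an unadjusted p under 0.05), where the block called Mt2 as lower (adjusted p = 0.039). In QF 3 were lower in Dysf_null, against 0.575% of all genes: the metallothioneins Mt1 (-1.56, adjusted p = 0.028) and Mt2 (-1.82, adjusted p = 0.00439), and Bnip3 (-1.24, adjusted p = 0.00961), a mitophagy receptor. Without both QF arrays numbered 2 Mt1 (adjusted p = 0.215) and Bnip3 (0.116) did not pass. Embryonic and regenerating fibre genes held 0 calls of 12 in either muscle by limma, with 1 at an unadjusted p under 0.05 in each. With the block Myh8, the perinatal myosin, was called as lower in Dysf_null TA (adjusted p = 0.0375) and the myogenic factor Myf6 as lower in Dysf_null QF (0.0193). Myh8's other probe set gave 0.15 in TA, so its fall rests on 1 of 2 probe sets.

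Between the muscles of Control mice 2 SRF and MRTF genes were called as higher in TA, Smyd1 (1.18, adjusted p = 0.0301), a chaperone-like factor of myosin, and Tpm4 (0.56, adjusted p = 0.0386), against 0.917% of all genes, and Smyd1's other probe set gave -0.23. Nes (nestin) was also higher in TA (0.93, adjusted p = 0.0317), while Mstn, the growth inhibitor myostatin (-1.01, adjusted p = 0.043), and Bnip3 (-1.10, adjusted p = 0.0114) were lower. These calls were lost in 9 of 22 alternative settings for Smyd1, 14 for Tpm4, 11 for Nes, 13 for Mstn and 6 for Bnip3. Between the muscles of Dysf_null mice Acta2, the smooth muscle actin (-1.16, adjusted p = 0.0197), and Gadd45a (-0.75, adjusted p = 0.0487) were lower in TA, against 0.301% of all genes, calls lost in 9 and 19 of 22 settings.

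Markers of other cells differed between the TA groups beside the fall of the 5 genes. Granulocyte markers summed to 1290 to 1502 in Dysf_null TA, against 446 to 625.2 in Control TA, and 3 of 9 were called as higher, against 0.479% of all genes, S100a8 (2.32), S100a9 (2.74) and Mmp9 (3.12), of which Mmp9 was at the floor on every Control TA array, so its value depends on the floor. Leaving out any of the TA arrays lost the call of Mmp9 (adjusted p up to 0.123 over all settings), and any but Control TA replicate 1 lost that of S100a8 (up to 0.121). Mmp9's other probe set gave 0.34 and was not called. Red cell genes summed to 22840 to 26220 in Dysf_null TA, against 11810 to 15760 in Control TA, with 4 of 5 called as higher, Alas2 (2.00), Bpgm (1.15), Car2 (1.12) and Hba-a1 (0.82). Leaving out any of the TA arrays lost the call of Car2 (adjusted p up to 0.213 over all settings), as did leaving out Dysf_null QF replicate 3 or Control QF replicate 1. Leaving out any TA array but Control TA replicate 1 lost that of Hba-a1 too, which left Alas2 and Bpgm called. Without quantile normalization the Hba-a1 difference was 0.60 and was not called. The deposited Hba-a1 values of the 2 TA groups overlapped. Fibroblast and tendon genes summed to 29560 to 44000, against 21760 to 29180, with 1 of 10 called (Fmod), and macrophage genes to 4187 to 4765, against 3439 to 4205, with Cd68 called as lower. Leaving out any of the Control TA arrays, or Dysf_null TA replicate 2 or 3, lost the calls of Fmod and Cd68 (adjusted p up to 0.157 and 0.0796 over all settings). Fmod's other probe set gave 0.19 in TA and 0.44 in QF, neither called. With the block, which called 1.7% of all genes in TA, 5 of 9 granulocyte, 4 of 10 fibroblast and tendon, 4 of 5 red cell and 2 of 5 bone and cartilage markers were called as higher in Dysf_null TA, and of the macrophage list C1qa as higher and Cd68 as lower. All 7 fibre markers had differences below 0 in TA, at a median of -0.14, and 0 were called by limma (0 at an unadjusted p under 0.05). Heart markers summed to 385.4 to 466.2 in Dysf_null TA and 388.8 to 506.5 in Control TA, with Myh6 at the floor in Dysf_null TA. By limma 0 of 11 endothelial and mural, 0 of 5 Schwann and nerve and 0 of 6 fat markers were called in TA (0, 0 and 1 at an unadjusted p under 0.05), and of 5 bone and cartilage markers Acp5 was called as higher. In QF the granulocyte sums ran the other way, 523.8 to 679.2 in Dysf_null QF against 777.2 to 1002 in Control QF, while those of red cell genes (21240 to 27520 against 15900 to 16200) and of fibroblast and tendon genes (27980 to 41140 against 17060 to 25300) had ranges above those of Control QF. In QF limma called S100a9 as lower (-1.82, adjusted p = 0.028, lost in 11 of 23 alternative settings) and Bpgm (0.72, lost in 17), Fmod (1.51, lost in 9), Kera (1.41, lost in 17), Postn (1.502, lost in 3) and Ucp1 (1.63, lost in 6) as higher. The part of these cells in the differences of the 5 genes was not tested.

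Over the 12 arrays, likeness to the mean centred profile of the 5 genes was measured as a root mean square difference in log2 units, whose median over 7305 other genes was 1.057. The gene closest to it was Gbe1, the glycogen branching enzyme, at 0.33, with means of 7.85 in Dysf_null TA, 9.13 in Control TA, 7.13 in Dysf_null QF and 7.61 in Control QF. Cd68, a lysosomal protein of macrophages, followed at 0.42, then Cryab at 0.45, the kinase of uridine and cytidine Uck2 and the phospholipase Pla2g12a at 0.49 each, the lipid phosphatase Plpp1 and the lactate transporter Slc16a1 at 0.55 each, and the p53 target Phlda3 at 0.58. Cd68 went against its list in TA, where 11 of 12 measured macrophage genes had genotype differences above 0 (median 0.25). Within the 5 genes, which made the profile, Ankrd2 lay closest to it at 0.29 and Csrp3 farthest at 0.76.

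**Figure D5:**
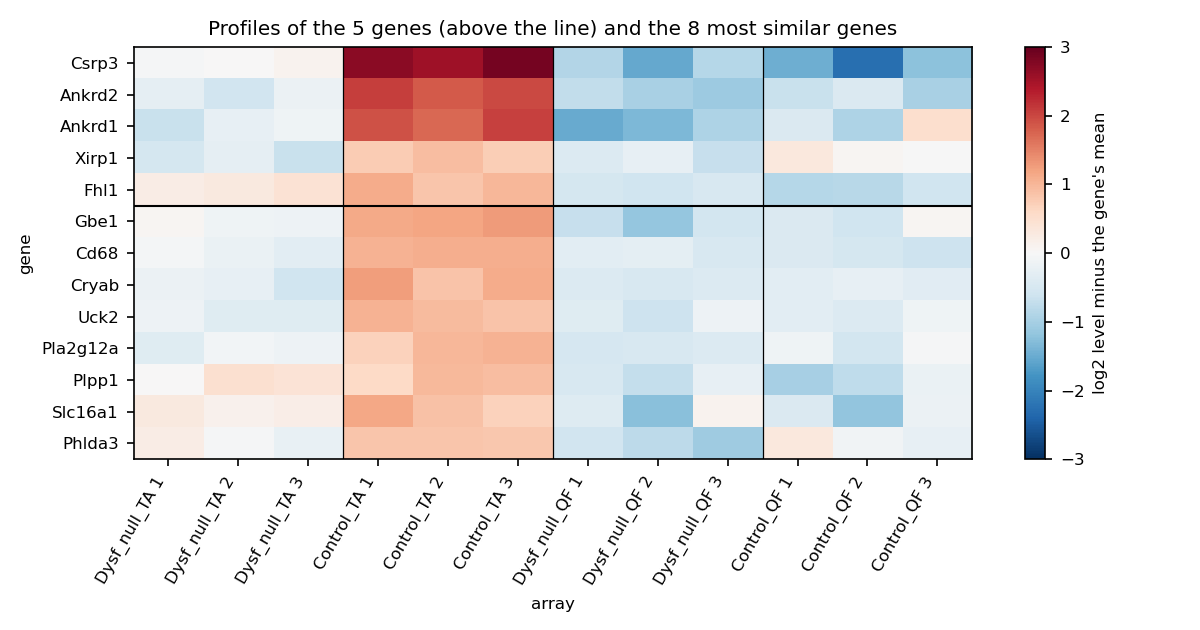
Log2 level minus the gene's mean over the 12 arrays (colour), with arrays along the horizontal axis and genes down the vertical axis: the 5 genes above the line and the 8 genes closest to their mean profile below it. Control TA holds the highest group mean of each of the 13 genes.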

How the data were processed

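Muscle RNA of 12 mouse samples was measured on 1-colour oligonucleotide arrays. The authors deposited linear intensities, 1 per probe set, and from the values each array was scaled to a 2% trimmed mean of 200.1 to 200.2; the software used is not given in the sources used here. Here 66 of 12488 probe sets (controls) were left out, arrays were quantile normalized, values under the 25th percentile (intensity 23.025, the floor) were raised to it, and log2 was taken. A probe set was kept if 3 or more arrays exceeded the floor. Differences were fitted with limma 3.58.1 (R 4.3.3) as group means over all 12 arrays, with an intensity trend and 8 residual degrees of freedom, two-sided, with Benjamini-Hochberg adjustment over 10331 probe sets and calls under 0.05. The median SE of a difference was 0.323, a precision set by the number of arrays. The script was tested on simulated data.

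Genes were named from GEO's platform annotation, in which 10833 probe sets have 1 symbol, 396 several and 1193 none, and a gene with several probe sets is given by the one of highest mean. The 5 genes, the 22 gene lists and the tests were chosen with earlier results of these data known. The text names every probe set of the 5 genes, their measured paralogs, the main Z-disc partners, the genes called in the other lists (at most 4 per comparison) and the 8 genes nearest in profile. Genes named because the replicate block alone called them fall outside that rule and were chosen after their values were seen.

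Arrays sharing a number were taken as pairs within a muscle: their deviations from the group means correlated at 0.18, 0.11 and 0.23 in TA and 0.39, 0.71 and 0.66 in QF. Between TA and QF arrays of 1 genotype the correlations were -0.14 to 0.12. The lowest TA value lay below the highest of these, so calls with the block in TA rest on a weak pairing. The pairing was taken from these same data and not from the labels. The alternatives were other normalization, floors and filters, no trend, array weights, replicate blocks, 1 muscle or genotype alone, and leaving out each array or both QF arrays numbered 2.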

Additional observations from a re-analysis of the deposited data

Results flagged for a closer look

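Csrp3 and Fhl1 (on its brighter probe set) had a genotype difference of opposite direction in the 2 muscles, with all 3 pairs lower in Dysf_null TA and all 3 higher in Dysf_null QF. The difference in TA minus that in QF was -3.23 for Csrp3 and -0.87 for Fhl1, and because both genes were chosen on Control TA this difference was not tested. The Fhl1 difference in QF, 0.22, passed neither fit (adjusted p = 0.825, and 0.252 with the replicate block), and the dimmer Fhl1 probe set gave 0.02 there with pairs of both signs. The Z-disc chaperone gene Cryab had a genotype difference that differed between the muscles by -1.27 (adjusted p = 0.0339 in limma's interaction test), on 1 of its 2 probe sets. That call was kept in 7 of 22 alternative settings, with adjusted p up to 0.358. The granulocyte genes S100a8 (3.89, adjusted p = 0.0128) and S100a9 (4.56, adjusted p = 0.00115) differed between the muscles in the other direction, with a genotype difference above 0 in TA and below 0 in QF. The call of S100a8 was lost in 7 of 22 settings (adjusted p up to 0.0776). S100a9 was at the floor on 2 of 3 Dysf_null QF arrays and 1 of 3 Control TA arrays. Over all probe sets that interaction test called 7, or 0.0678%.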

How the results depend on the processing

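The number of arrays, 3 in each group, limits the precision. All 6 probe sets of the 5 genes stayed lower in Dysf_null TA in each of 23 alternatives, with ranges of -2.76 to -2.60 for Csrp3, -2.38 to -2.19 for Ankrd2, -2.36 to -2.10 for Ankrd1, -1.40 to -1.21 for Xirp1 and -0.73 to -0.59 and -0.76 to -0.65 for Fhl1. Counts of called probe sets depended on the settings, and the causes were not tested. The genotype difference in TA had 42 calls, 192 with array weights and 14 to 45 on leaving out 1 array, with 25, 17 and 14 without Dysf_null TA replicates 1, 2 and 3 and 23, 18 and 18 without Control TA replicates 1, 2 and 3. The genotype difference in QF had 47, 7 without the intensity trend, 23 with array weights, 2 without both QF arrays numbered 2, 21 to 82 on leaving out 1 array (82 without Control QF replicate 3), and 0 by limma in QF alone (406 at an unadjusted p under 0.05). The muscle difference in Control had 76, 42 without the trend, 21 in Control alone and 35 to 147 on leaving out 1 array (147 without Control QF replicate 3), and that in Dysf_null 31, 52 with array weights, 9 in Dysf_null alone and 19 to 38 on leaving out 1 array. The interaction had 7 calls, and 4 to 8 on leaving out 1 array.

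With the replicate block within each muscle there were 159 calls in TA, 273 in QF and 32 in the interaction. It called 2 of the 6 probe sets of the 5 genes in QF, against 0 without it, the only comparison with the block in which these genes were tested. It could not be fitted for the differences between muscles. Of the 6 probe sets, 2 were called between the muscles of Dysf_null mice, 1 without quantile normalization, 1 without the trend and 0 by limma in Dysf_null alone (5 at an unadjusted p under 0.05). The median of the 5 genes' muscle difference in Control, 2.18, was 1.87 without both QF arrays numbered 2 and 1.87 to 2.51 on leaving out 1 array. Their median interaction, -1.28, was -1.07 with array weights, -1.02 without both QF arrays numbered 2 and -1.67 to -0.97 on leaving out 1 array. Near 0, signs turned: the dimmer probe set of Fhl1 in QF was -0.17 without Dysf_null QF replicate 3 and -0.20 without Control QF replicate 1, of a range of -0.20 to 0.14 on leaving out 1 array. Xirp1 between the muscles of Dysf_null mice was 0.0038 without quantile normalization, 0.0555 without both QF arrays numbered 2 or without Dysf_null QF replicate 2, and 0.0484 without Dysf_null TA replicate 3, of a range of -0.16 to 0.0555 on leaving out 1 array.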
